A study of Saccharomyces cerevisiae with 12 samples.

Results

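The genes examined here encode the enzymes that carry glucose to pyruvate, ethanol, acetyl-CoA and glycerol in the budding yeast *Saccharomyces cerevisiae*. They were chosen by name, as a list of 34 glycolytic, pyruvate, ethanol, acetate and glycerol enzymes, and 33 of them were found among the 5449 genes measured, each with 1 probe set. *TDH2*, the remaining gene of the list, was not paired with a single probe set and was not analysed here. Their transcripts were compared in 4 isogenic strains of the W303 background: the double mutant *top1Δtop2ts* (W303 *top1::natr top2-1*), the single mutants *top1Δ* (W303 *top1::natr*) and *top2ts* (W303 *top2-1*), and wild-type (W303). The gene for DNA topoisomerase I is deleted in *top1Δ*, whereas *top2ts* makes a topoisomerase II that loses its function at high temperature. All strains, wild-type included, were held in G1 by α-factor in YPD, first for 90 min at 25°C and then, still with the pheromone, for 90 min at 37°C, so every strain went through the same heat step. Each strain was measured on 3 Affymetrix Yeast Genome 2.0 arrays from independent experiments, 12 arrays in all, each labelled from 2 µg of total RNA. Values are MAS5 signal intensities, which are relative for each probe set, so a signal is compared between strains for the same gene and not between genes.

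In glycolysis, glucose is phosphorylated, split into triose phosphates and oxidised to pyruvate, and in yeast growing on glucose most of the pyruvate is decarboxylated and reduced to ethanol. Side branches make glycerol, which balances NADH and protects against osmotic stress, and acetate, which is activated to the acetyl-CoA used for lipid synthesis and histone acetylation. Several steps are served by a pair or family of isozymes, of which one copy is typically transcribed at a very high level on glucose while the others answer to stress, respiration or a particular nutrient.

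*TOP1*, the targeted gene, had signals of 9.5, 0.2 and 0.8 in the 3 *top1Δtop2ts* arrays and 0.8, 0.8 and 1.2 in *top1Δ*, against 1301, 786 and 1109 in *top2ts* and 1195, 731 and 1196 in wild-type, so the deletion was seen in the libraries labelled with it. In *top2ts* the protein and not the transcript is targeted, so *TOP2* signals do not check that label. The markers of a-type cells answering the pheromone were high in every strain: the 6 genes *STE2*, *MFA1*, *MFA2*, *BAR1*, *FUS1* and *AGA2* summed to between 37809 and 67895 in *top1Δtop2ts* and between 52925 and 60281 in wild-type. Of 6 genes taken as markers of cells past the G1 arrest, 4 were lower in *top1Δtop2ts* than in wild-type, where 15.1% of all genes were. These were *CLB1*, *CLB2*, *RNR1* and *HTA1* (limma adjusted p at most 0.00477). The summed signal of all 6, most of it from *HTA1*, ran from 3293 to 5429.5 in *top1Δtop2ts* (the outer values of 3 arrays) against 8986 to 17587 in wild-type. The sums were 9473 to 14356 in *top1Δ* and 6436 to 18587 in *top2ts*. The 4 genes of α-type cells summed to between 1164 and 1674 in *top1Δtop2ts* and between 765 and 1396 in wild-type, most of it from *SAG1*. Of the 4, 1 was called higher, and 3 with the replicate block, against 1.25% and 4.99% of all genes. *MF(ALPHA)1* rose from low signals of 26.2, 4.6 and 30.5 in wild-type to 126, 93.8 and 140.9, a log2 change of 2.94 (limma adjusted p = 2.59e-11). The log2 difference between the 3′ and 5′ control probe sets of the *TDH1* transcript, a sign of RNA integrity, ran from 0.23 to 0.84 in *top1Δtop2ts* and from 0.79 to 1.01 in wild-type. It ran from 0.90 to 1.34 in *top1Δ* and from 0.48 to 0.97 in *top2ts*. Between *top1Δtop2ts* and wild-type, the summed markers of cells past G1 and the signals of *MF(ALPHA)1* did not overlap. The a-type sums, the α-type sums and the *TDH1* differences did. The part of these measures in the changes given below was not tested. The 4 arrays numbered 2 had a lower level than the others, with a mean log2 signal of the poly-A spike-in RNAs of 8.46 to 8.72 against 9.45 to 9.49 and 9.32 to 9.59 in the arrays numbered 1 and 3. The part of this lower level in the values below was not tested beyond the fits blocked by replicate number and those without these arrays.

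In *top1Δtop2ts* the enzymes of central carbon metabolism were mostly below wild-type, with a median change close to that of all transcripts. The log2 change was below 0 for 29 of the 33 genes, or 87.9%, against 85.6% of all 5449 genes. The median was -0.44 for the enzyme genes and -0.54 for all genes. In bulk RNA, fewer cells expressing a gene and less RNA per cell cannot be told apart. In the limma fit of all 12 arrays, 4 of the 33 genes fell (*PFK2*, *ADH5*, *ALD5* and *ACS2*) and 1 rose (*GPP2*) at an adjusted p under 0.05, where 15.1% of all genes fell and 1.25% rose. The share of the enzyme genes that fell, 12.1%, was near this background, and the 3.03% that rose stand for a single gene. When replicate number entered as a block, 16 fell and 3 rose, where 62.7% of all genes fell and 4.99% rose. Many of these genes have bright probe sets, with 22 of 33 in the top 1090 genes by wild-type signal and 9 in the top 100. Those 1090 genes had a median log2 change of -0.74 with 21.9% called lower, while the 22 enzyme genes among them had a median of -0.46 with 3 called lower, or 13.6%. When all arrays were given equal medians, the median of all genes was -0.02 and that of the enzyme genes 0.09, with 6 called lower and 5 higher, against 22.9% and 21.7% of all genes. Quantile normalization gave medians of -0.00 and 0.14 with 6 called lower and 7 higher, against 23.4% and 23.9% of all genes. Scaling to the spike-in RNAs gave medians of -0.61 and -0.50 with 17 called lower and 3 higher, against 61.6% and 3.29%. The sign of the median of the enzyme genes was thus negative on the deposited and spike-in scales and positive when the arrays were made alike. The standard error of a change from wild-type was 0.39 for every gene in this fit, which gave all genes the same variance.

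**Figure D1:**
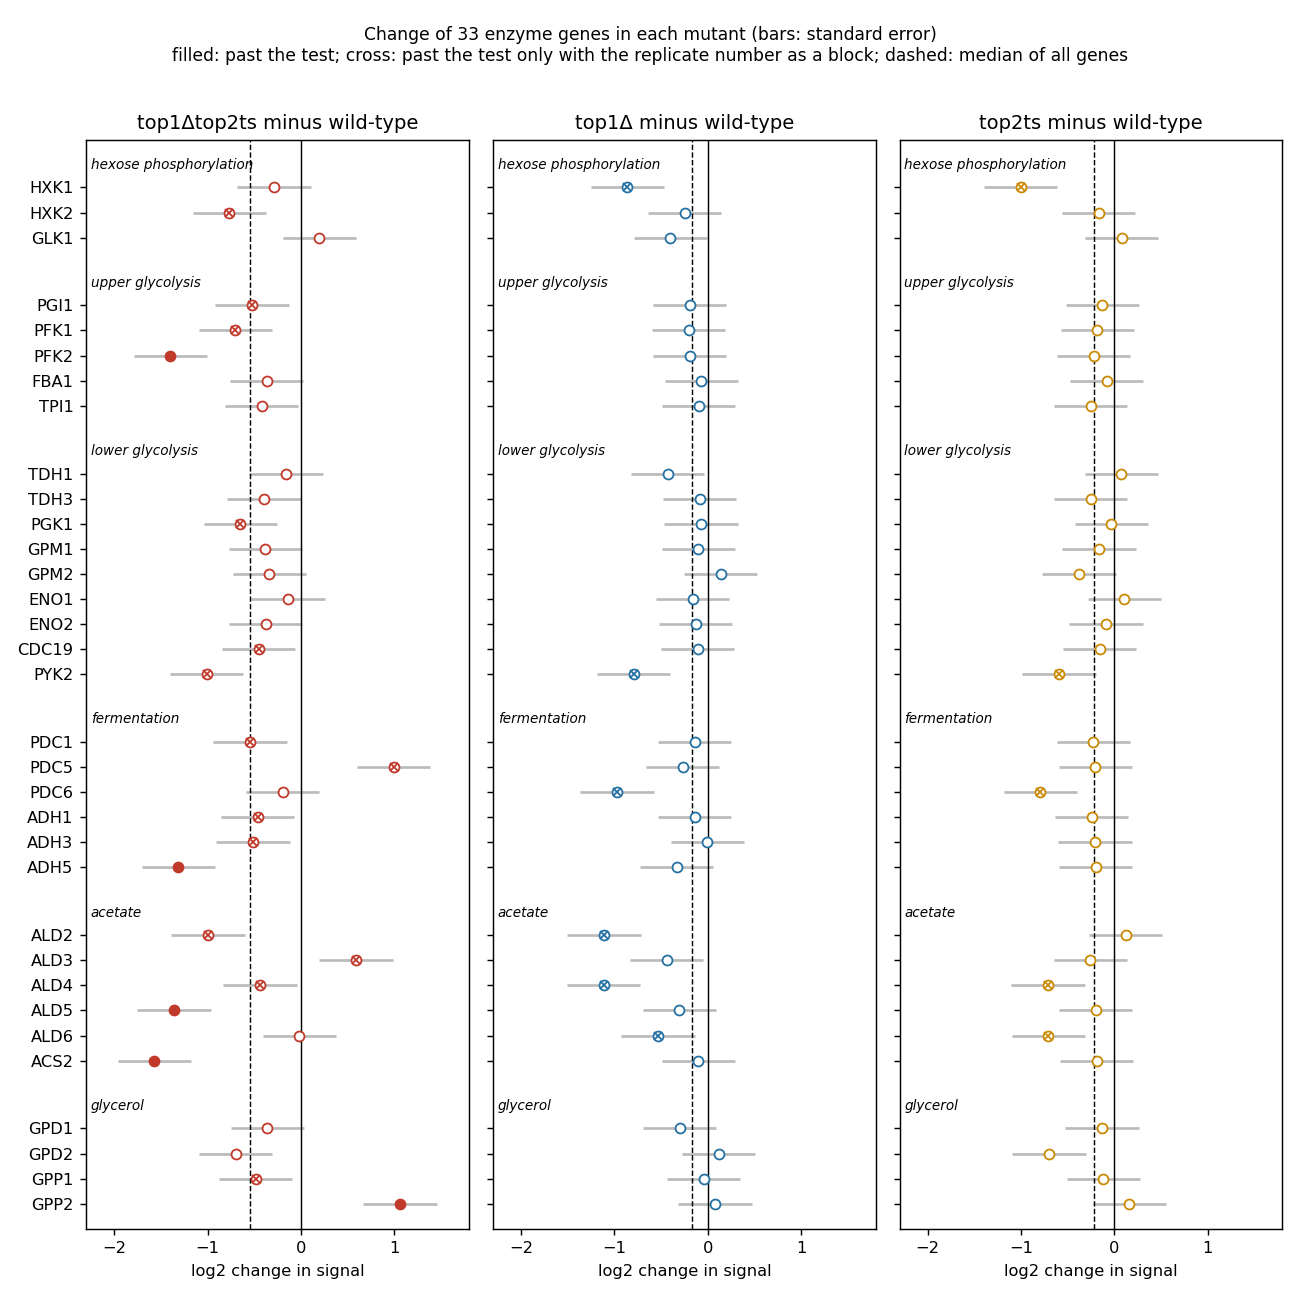
Log2 change in signal (x axis) of each of the 33 enzyme genes (rows, grouped by step) in *top1Δtop2ts*, *top1Δ* and *top2ts* relative to wild-type, with the standard error of the limma fit as bars. Filled points passed the test, and crossed points passed in the fit blocked by replicate number but not in that without a block. The dashed line is the median of all genes, at -0.54, -0.17 and -0.22. In *top1Δtop2ts* the 5 filled points are *PFK2*, *ADH5*, *ALD5*, *ACS2* and *GPP2*, and no point is filled in the single mutants.

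Of the genes for hexose phosphorylation, the first step of glycolysis, *HXK2* had the lowest change in *top1Δtop2ts*. *HXK2*, which encodes the main hexokinase of glucose-grown cells, had signals of 7048, 4092 and 6187 in *top1Δtop2ts*, against 11358, 7767 and 9947 in wild-type. All 3 double-mutant arrays lay below the wild-type arrays. The log2 change of -0.77 did not pass the test (limma adjusted p = 0.148), and did with the replicate block (0.000281). *HXK1*, the second hexokinase, which is induced when glucose runs low, and *GLK1*, a glucokinase, had log2 changes of -0.29 and 0.20 with overlapping arrays. *GLK1* passed the test as higher when arrays were given equal medians or identical distributions, which put its log2 change at 0.72 and 0.83.

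In upper glycolysis, where fructose 6-phosphate is phosphorylated and cut into trioses, 1 of the 2 subunit genes of phosphofructokinase passed the test. *PFK2*, which encodes the β subunit, had signals of 4770.5, 3504 and 3319.8 in *top1Δtop2ts*, against 13025, 8499 and 9182 in wild-type. The highest double-mutant array lay well below the lowest wild-type array. *PFK2* was 2.64-fold lower, a log2 change of -1.40 ± 0.39 (limma adjusted p = 0.00644), and lower in 3 of 3 same-numbered pairs. *PFK1*, which encodes the α subunit of the same enzyme, had 7501, 4528 and 7609 in *top1Δtop2ts* and 12317, 8900.2 and 10149 in wild-type. Its arrays did not overlap either, but the log2 change was -0.70 (limma adjusted p = 0.186). In the single mutants the changes of *PFK2* were -0.19 in *top1Δ* and -0.22 in *top2ts*, and those of *PFK1* were -0.20 and -0.18, with arrays that overlapped those of wild-type. The remaining genes of this stretch each act alone at their step. *PGI1*, for phosphoglucose isomerase, had a log2 change of -0.52 in *top1Δtop2ts*, *FBA1*, for aldolase, -0.37, and *TPI1*, for triose phosphate isomerase, -0.42, none past the test. *PGI1* and *PFK1* passed with the replicate block (limma adjusted p = 0.00893 and 0.000745), and *FBA1* turned to a called rise of 0.24 under quantile normalization. Without wild-type replicate 1 the fall of *PFK2* no longer passed (limma adjusted p = 0.0835).

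Lower glycolysis, which turns triose phosphate into pyruvate and makes the ATP, held no gene that passed the test in *top1Δtop2ts*. Its 9 measured genes had a median log2 change of -0.38, all below 0. The bright genes moved in a narrow band: *TDH3*, for the main glyceraldehyde-3-phosphate dehydrogenase, by -0.40, *GPM1*, for phosphoglycerate mutase, by -0.38, *ENO2*, for the glucose-induced enolase, by -0.38, and *CDC19*, for the main pyruvate kinase, by -0.45. *PGK1*, for phosphoglycerate kinase, had the largest change of these, with signals of 11961, 6399 and 12018 in *top1Δtop2ts*, against 16668, 14286 and 14949 in wild-type. All double-mutant arrays of *PGK1* lay below those of wild-type, most of all the one numbered 2. Its log2 change of -0.65 did not pass the test (limma adjusted p = 0.22). It passed with the replicate block (0.00292) and with spike-in scaling (0.00354). *TDH1* and *ENO1*, second copies of their enzymes, had log2 changes of -0.16 and -0.14, and *GPM2*, a homolog of *GPM1* with a low signal, of -0.34. The sign of *ENO1* flipped to a called rise of 0.46 under quantile normalization. Some of these signals stood near the top of the arrays. *ENO2* had 19434, 17386 and 16775 in wild-type, where the highest signal of any probe set on those arrays was 21694, 19942 and 19489. Whether the upper end of the scale narrowed the changes of such bright genes was not tested.

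*PYK2* stood apart within lower glycolysis. It encodes the second pyruvate kinase, which is less dependent on fructose 1,6-bisphosphate and is repressed by glucose. Its signals were 748, 533 and 638 in *top1Δtop2ts*, 722, 634 and 869.7 in *top1Δ* and 1041, 653 and 887 in *top2ts*, against 1543, 1039.8 and 1293 in wild-type. All arrays of *top1Δtop2ts* and of *top1Δ* lay below the wild-type arrays, while 1 *top2ts* array overlapped. The log2 changes were -1.01, -0.79 and -0.59, and the first missed the threshold narrowly (limma adjusted p = 0.0569). With the replicate block *PYK2* fell in all 3 mutants (limma adjusted p = 3.41e-05, 0.00252 and 0.0215).

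In fermentation, 1 gene fell, that of a minor isozyme. *ADH5*, which encodes a minor cytosolic alcohol dehydrogenase, had signals of 326, 199.7 and 288 in *top1Δtop2ts*, against 956, 424 and 708 in wild-type. The groups did not overlap, and the wild-type array numbered 2 was the lowest of its strain. *ADH5* was 2.48-fold lower, a log2 change of -1.31 ± 0.39 (limma adjusted p = 0.0107), lower in 3 of 3 same-numbered pairs. The call was lost without wild-type replicate 1 (limma adjusted p = 0.158), without wild-type replicate 3 (0.0817) and without replicate 2 of *top1Δtop2ts* (0.0864). *PDC5*, which encodes a pyruvate decarboxylase known to be induced when the main enzyme is missing or thiamine is short, had signals of 2192, 1528 and 2084 in *top1Δtop2ts*, against 1350.0, 661 and 995 in wild-type. Every double-mutant array was above every wild-type array. Its log2 change of 0.99 ± 0.39 missed the threshold (limma adjusted p = 0.0612), and passed with the replicate block (0.000106), with spike-in scaling (0.000933) and with equal medians (7.1e-07).

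*PDC1*, the main pyruvate decarboxylase gene, and *ADH1*, the main fermentative alcohol dehydrogenase gene, had changes of -0.55 and -0.46 in *top1Δtop2ts*. *ADH3*, for the mitochondrial alcohol dehydrogenase, had -0.51. None of these passed the test. All passed with the replicate block (limma adjusted p = 0.016, 0.0404 and 0.0085) and with spike-in scaling (0.0112, 0.0243 and 0.0151). *PDC6*, a minor pyruvate decarboxylase gene that is induced by sulfur limitation, had a change of -0.20 in *top1Δtop2ts* with overlapping arrays.

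Of the 33 genes, *ACS2* had the lowest change in *top1Δtop2ts*. It encodes the acetyl-CoA synthetase of glucose-grown cells, which supplies acetyl-CoA to the cytosol and nucleus. *ACS2* had signals of 2993, 2365 and 2066 in *top1Δtop2ts*, compared with 7272, 5570.0 and 7685 in *top1Δ*, with 7987, 4379 and 7401 in *top2ts* and with 7991, 6209 and 7751 in wild-type. The double-mutant arrays lay below every array of the other 3 strains. *ACS2* was 2.97-fold lower than in wild-type, a log2 change of -1.57 ± 0.39 (limma adjusted p = 0.00167), in 3 of 3 same-numbered pairs, and it passed the test under each of 21 other settings. In the single mutants its changes were -0.10 in *top1Δ* and -0.19 in *top2ts*.

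Of the 5 aldehyde dehydrogenase genes, whose enzymes make the acetate, *ALD5* passed the test in *top1Δtop2ts*. *ALD5*, for a minor mitochondrial enzyme, had signals of 4019, 2686 and 2844 in *top1Δtop2ts*, against 9642, 6429 and 8377 in wild-type. The highest double-mutant array was below the lowest wild-type array, and *ALD5* was 2.57-fold lower, a log2 change of -1.36 ± 0.39 (limma adjusted p = 0.00812), lower in 3 of 3 same-numbered pairs. Without wild-type replicate 1 or 3 this call was lost (limma adjusted p = 0.077 and 0.0638). *ALD6*, for the main cytosolic enzyme of glucose-grown cells, had 10218, 5811 and 11997 in *top1Δtop2ts*, against 10021, 7688 and 9571 in wild-type. These arrays overlapped, and the change of -0.02 turned to a called rise with equal medians and quantile normalization, by 0.51 and 0.63. *ALD4*, for the main mitochondrial enzyme, had a change of -0.44 that did not pass the test (limma adjusted p = 0.408). It passed with the replicate block (0.0277) and with spike-in scaling (0.026).

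*ALD2* and *ALD3*, neighbouring genes for stress-induced cytosolic aldehyde dehydrogenases, had changes of opposite sign in *top1Δtop2ts*. *ALD2* had 1102, 533 and 848 in *top1Δtop2ts* and 2083, 1038 and 1827 in wild-type, a log2 change of -0.995 (limma adjusted p = 0.0605, or 2.7e-05 with the replicate block). The double-mutant array numbered 1 lay slightly above the wild-type array numbered 2, although *ALD2* was lower in 3 of 3 same-numbered pairs. *ALD3* had 240.1, 98.9 and 211 in *top1Δtop2ts* and 141, 76.3 and 137 in wild-type, a log2 change of 0.59 (limma adjusted p = 0.271, or 0.00731 with the block), higher in 3 of 3 pairs with overlapping arrays. The sequences of these 2 genes are much alike, and whether their probe sets share signal was not tested.

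Glycerol synthesis held the only gene of the 33 that rose. *GPP2*, which encodes the glycerol-3-phosphatase induced by osmotic stress, had signals of 4698, 2622 and 4233 in *top1Δtop2ts*, compared with 2023, 1537 and 2170.4 in *top1Δ*, with 2523, 1590.0 and 2001 in *top2ts* and with 2328, 1287 and 1917 in wild-type. Every double-mutant array was above every array of the other 3 strains. *GPP2* was 2.09-fold higher than in wild-type, a log2 change of 1.06 ± 0.39 (limma adjusted p = 0.0448), and the 3 same-numbered pairs gave 1.01, 1.03 and 1.14. The adjusted p was near the threshold: leaving out any wild-type array, any *top1Δ* array, *top2ts* replicate 3 or replicate 1 or 3 of *top1Δtop2ts* put it between 0.052 and 0.142, while the block put it at 1.94e-05. *GPP1*, for the constitutive phosphatase, had 8925, 5251 and 9072 in *top1Δtop2ts* and 12037, 9594 and 10078 in wild-type. These arrays did not overlap. The log2 change of -0.48 did not pass the test (limma adjusted p = 0.361), and did with the replicate block (0.0129) and with spike-in scaling (0.0208).

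The upstream glycerol-3-phosphate dehydrogenase genes did not pass in any mutant. *GPD1*, the osmotically induced gene, had a change of -0.36 in *top1Δtop2ts*. *GPD2*, which answers to lack of oxygen, varied widely between arrays, with 1435, 277 and 758 in *top1Δtop2ts* and 1134, 1656 and 687 in wild-type. Its change was -0.70, the same-numbered pairs gave 0.34, -2.58 and 0.14, and the groups overlapped.

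**Figure D2:**
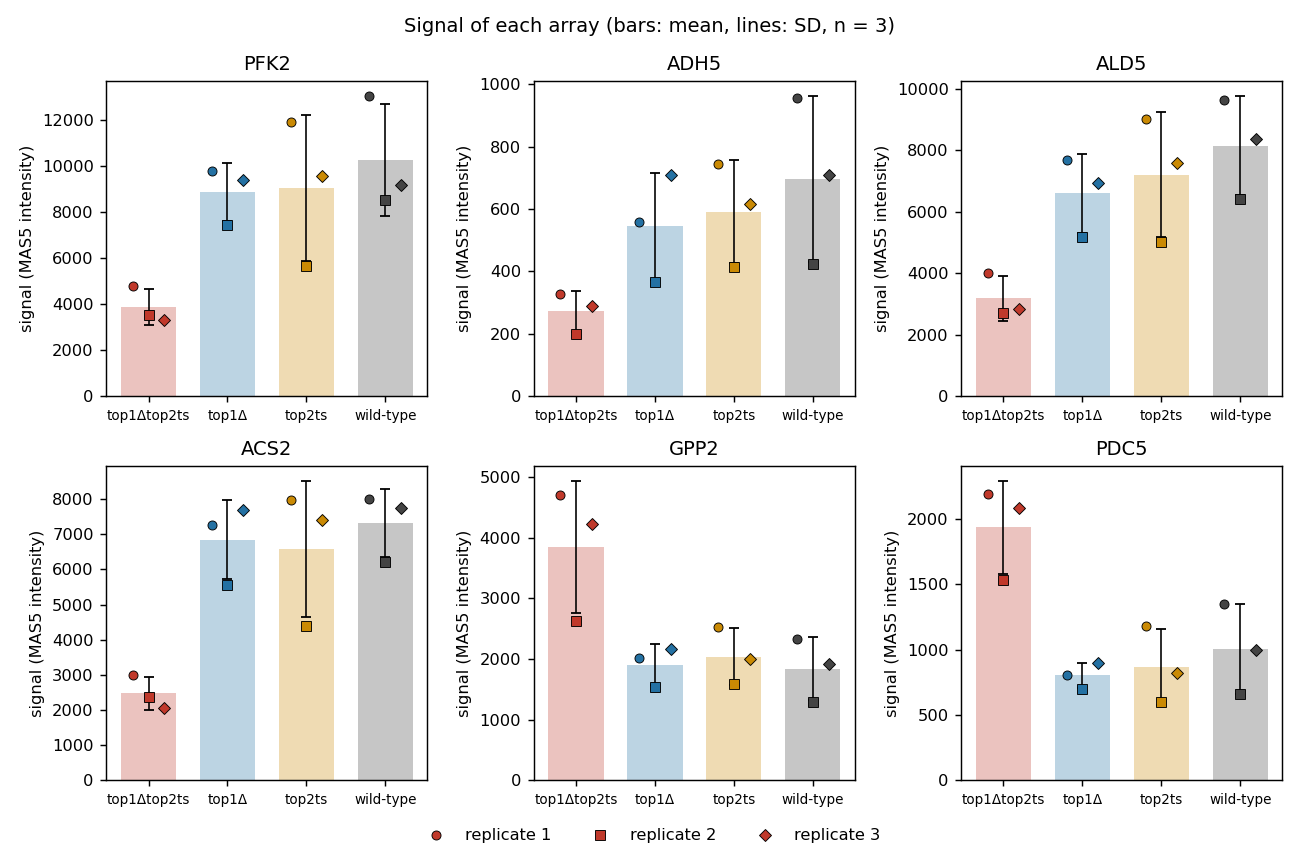
MAS5 signal (y axis, linear, from 0) of *PFK2*, *ADH5*, *ALD5*, *ACS2*, *GPP2* and *PDC5* in each array of *top1Δtop2ts*, *top1Δ*, *top2ts* and wild-type, with symbols for the replicate number, bars for the mean and lines for the SD of 3 arrays. *ACS2* averaged 2475 ± 473 in *top1Δtop2ts* and 7317 ± 967 in wild-type, and *GPP2* averaged 3851 ± 1089 in *top1Δtop2ts* and 1844 ± 525 in wild-type.

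In the single mutants none of the 33 genes passed the test in the limma fit without a block, in either direction. At an unadjusted p under 0.05, 5 were lower and 0 higher in *top1Δ*, and 2 were lower and 0 higher in *top2ts*. Of all genes, 5.91% were lower and 0.239% higher at this unadjusted threshold in *top1Δ*, and 3.54% and 0.863% in *top2ts*. After adjustment 0.936% of all genes were lower and 0.0551% higher in *top1Δ*, and 0.532% and 0.33% in *top2ts*. The medians of the enzyme genes, -0.19 and -0.20, lay close to those of all genes, -0.17 and -0.22. With the replicate block 6 genes fell in *top1Δ* (*HXK1*, *PYK2*, *PDC6*, *ALD2*, *ALD4* and *ALD6*), where 12.4% of all genes fell and 0.569% rose. In *top2ts* the same block called 5 (*HXK1*, *PYK2*, *PDC6*, *ALD4* and *ALD6*), against 9.08% and 1.12% of all genes, and no enzyme gene rose in either strain. Both comparisons use the same wild-type arrays, so the lists are not independent.

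Among the genes called with the block, *HXK1* had signals of 8868, 3613 and 7419.5 in *top1Δtop2ts*, 4278, 3144 and 5362 in *top1Δ* and 5035, 2133 and 4988 in *top2ts*, against 9657, 5497 and 8159 in wild-type. Both single mutants lay below all wild-type arrays, while the double mutant overlapped with wild-type. The log2 changes of *HXK1* in *top1Δ* and *top2ts* were -0.86 and -1.005, 1.82-fold and 2.01-fold lower (limma adjusted p with the replicate block 0.00397 and 0.00164, and 0.658 and 0.484 without it). *ALD4* had 2436, 1200.3 and 2176 in *top1Δtop2ts*, 1170.0, 1003 and 1339 in *top1Δ* and 2029.5, 989.7 and 1802 in *top2ts*, against 3128, 1814 and 2797 in wild-type. It was lowest in *top1Δ*, without overlap with wild-type, and its changes there and in *top2ts* were -1.11 and -0.71 (limma adjusted p with the block 0.000336 and 0.0123, without it 0.233 and 0.995).

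*ALD6* was below wild-type in both single mutants. Its signals of 6642, 5193 and 7078 in *top1Δ* cells, and of 6399, 3926 and 6729 in *top2ts* cells, were below the wild-type arrays given above. The log2 changes were -0.53 and -0.71 (limma adjusted p with the block 0.0376 and 0.0104, without it 0.9997 and 0.995). *PDC6* had 125, 47.6 and 142 in *top1Δ* and 109, 81.6 and 137 in *top2ts*, against 232, 135 and 203 in wild-type. Its changes were -0.97 and -0.79 (limma adjusted p with the block 0.00252 and 0.0136, without it 0.443 and 0.995). The highest array of each mutant was slightly above the lowest wild-type array. *ALD2* had 896, 534 and 819.9 in *top1Δ*, below all wild-type arrays, and 2232, 1315 and 1729 in *top2ts*, which overlapped with wild-type. The log2 changes of *ALD2* were -1.11 in *top1Δ* (limma adjusted p = 0.233, or 0.000132 with the block) and 0.12 in *top2ts*. Whether *ALD2* differed between the single mutants was not tested.

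**Figure D3:**
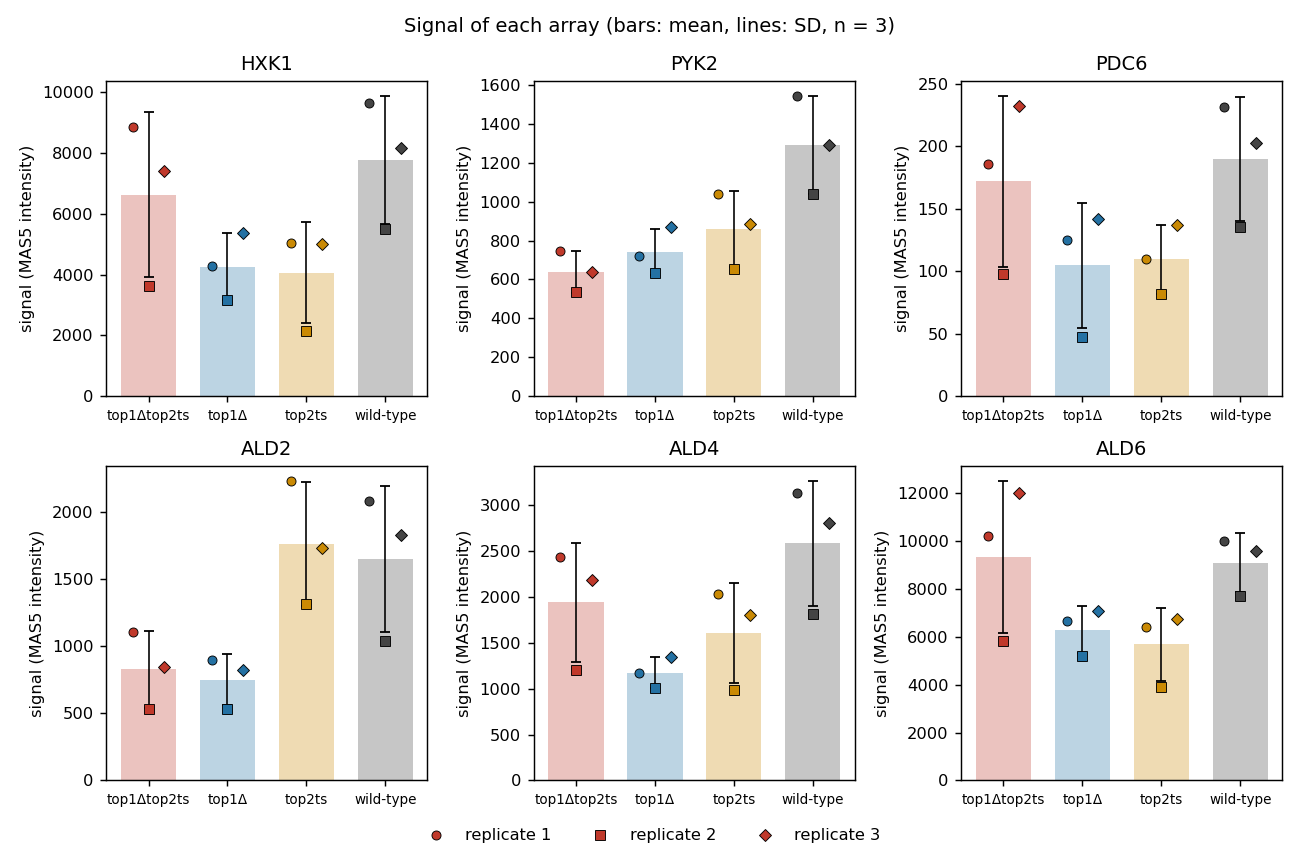
MAS5 signal (y axis, linear, from 0) of *HXK1*, *PYK2*, *PDC6*, *ALD2*, *ALD4* and *ALD6* in each array of *top1Δtop2ts*, *top1Δ*, *top2ts* and wild-type, with symbols for the replicate number, bars for the mean and lines for the SD of 3 arrays. *HXK1* averaged 4261 ± 1109 in *top1Δ* and 4052 ± 1662 in *top2ts*, but 6634 ± 2714 in *top1Δtop2ts*, against 7771 ± 2107 in wild-type.

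The design also asks whether losing both enzymes changed a transcript by more or less than the sum of the single losses. The departure from that sum is the log2 change in *top1Δtop2ts* minus those in *top1Δ* and *top2ts*. None of the 33 genes passed this test in the limma fit without a block, where 0.679% of all genes were called lower and 1.65% higher after adjustment. At an unadjusted p under 0.05 it was 1 lower and 6 higher, against 3.85% and 5.14% of all genes. With the replicate block 4 were lower and 7 higher, against 14.0% and 9.21% of all genes. The standard error was 0.55 without the block and between 0.21 and 0.27 with it for the genes named here.

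The 4 negative departures were those of the 4 genes that fell in the double mutant: *ACS2* (-1.28), *PFK2* (-0.98), *ALD5* (-0.85) and *ADH5* (-0.78), with limma adjusted p of 0.00128, 0.00764, 0.00781 and 0.0222 with the block. Of the 7 positive departures, those of *HXK1* (1.58), *PDC6* (1.57), *ALD4* (1.38) and *ALD6* (1.22) belonged to genes that were lower in both single mutants than in the double mutant. *PDC5* (1.46), *ALD3* (1.28) and *GPP2* (0.82) had changes above 0 in the double mutant, beside changes of -0.27, -0.44 and 0.08 in *top1Δ* and -0.20, -0.26 and 0.16 in *top2ts*. The positive departures had limma adjusted p between 0.00026 and 0.0109 with the block. The departure is computed from the same arrays as the change in each mutant. Its lists are therefore not independent of the genes called in those comparisons. *PYK2* and *ALD2* had departures of 0.38 and -0.01, which did not pass with or without the block.

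**Figure D4:**
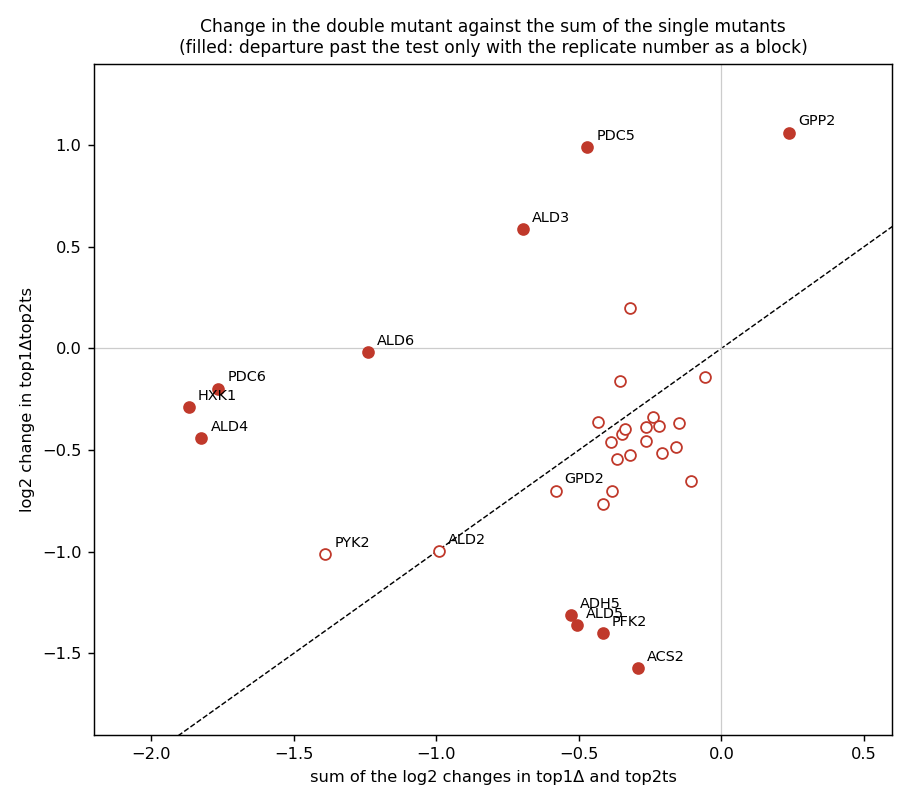
Log2 change in *top1Δtop2ts* (y axis) against the sum of the log2 changes in *top1Δ* and *top2ts* (x axis) for the 33 enzyme genes, 1 point each, with the line of equality dashed. Filled points departed from the sum in the fit blocked by replicate number but not in that without a block. Of these, *PFK2*, *ADH5*, *ALD5* and *ACS2* lie below the line and *HXK1*, *PDC5*, *PDC6*, *ALD3*, *ALD4*, *ALD6* and *GPP2* above it.

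Isozymes of the same step were set against each other, since a factor shared by all signals of an array cancels in the log2 ratio of 2 signals. The dimmer wild-type array numbered 2 still had the lowest wild-type ratio in most pairs. *PDC5* over *PDC1* had -3.72, -4.58 and -3.93 in wild-type, and *GPP2* over *GPP1* -2.37, -2.90 and -2.39. In *GPD2* over *GPD1* that array had the highest ratio. How far array level shifts the wild-type range and mean was not tested. Of 17 pairs of isozymes or subunits, the ratio in *top1Δtop2ts* lay outside the wild-type range on all 3 arrays for 10, and moved by over 1 for 3. Over all pairs of the 5449 genes the ratio lay outside without overlap for 53.7%, and did so with a change over 1 for 18.9%, a background to which the 10 pairs were close. In *top1Δ* 4 of 17 pairs did not overlap, against 35.8% of all pairs of genes, and 0 of them moved by over 1, against 3.73%. In *top2ts* it was 4 pairs, against 29.6%, and 0 over 1, against 3.37%. Each of these 18 ratios had p = 0.1 by an exact two-sided permutation test of 3 arrays against 3, the smallest this design allows, and 0.283 after adjustment over 51 comparisons.

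The pairs that moved by over 1 were *GPP2* over *GPP1*, *PDC5* over *PDC1* and *ALD5* over *ALD6*. The *GPP2* to *GPP1* ratio was above the wild-type mean by 1.63, 1.55 and 1.45 on the log2 scale in the *top1Δtop2ts* arrays, a change of 1.55 ± 0.18 (SE), and changed by 0.12 in *top1Δ* and 0.28 in *top2ts*. *PDC5* over *PDC1* was above by 1.47, 1.73 and 1.41, a change of 1.54 ± 0.28. In both pairs the minor gene had a higher signal and the major gene a lower one than in wild-type. *ALD5* over *ALD6* differed from the wild-type mean by -1.18, -0.94 and -1.91, a change of -1.34 ± 0.30 in *top1Δtop2ts*, while it was 0.23 in *top1Δ* and 0.51 in *top2ts*. *PDC1* had 13379, 7758 and 13246 in *top1Δtop2ts* and 17809.6, 15859 and 15129 in wild-type, below wild-type on all 3 arrays.

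The hexokinase pair had opposite signs in the double and single mutants, a difference that was not tested. *HXK1* over *HXK2* changed by 0.48 in *top1Δtop2ts*, by -0.62 in *top1Δ* and by -0.84 in *top2ts*, on all 3 arrays of each strain. In *top1Δtop2ts*, *GLK1* over *HXK2* changed by 0.96, *PFK2* over *PFK1* by -0.70 and *ADH5* over *ADH1* by -0.85, all without overlap. Against *ALD6*, *ALD2* changed by -0.98 and *ALD3* by 0.60. Besides *HXK1* over *HXK2* and *ALD5* over *ALD6*, the ratios without overlap in the single mutants were *PYK2* over *CDC19* (-0.69) and *ALD4* over *ALD6* (-0.58) in *top1Δ*, and *ALD2* over *ALD6* (0.83) and *ENO1* over *ENO2* in *top2ts*. The enolase pair changed by little, with arrays close together. *ENO1* over *ENO2* was above the wild-type mean by 0.25, 0.27 and 0.20 in *top1Δtop2ts* and changed by 0.24 there, -0.03 in *top1Δ* and 0.20 in *top2ts*, with overlap in *top1Δ* alone. The genes for these enolases are nearly identical, and shared probe signal was not tested. *TDH1* over *TDH3* (0.24), *GPM2* over *GPM1* (0.04), *ADH3* over *ADH1* (-0.05) and *GPD2* over *GPD1* (-0.34) overlapped with wild-type in *top1Δtop2ts*.

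**Figure D5:**
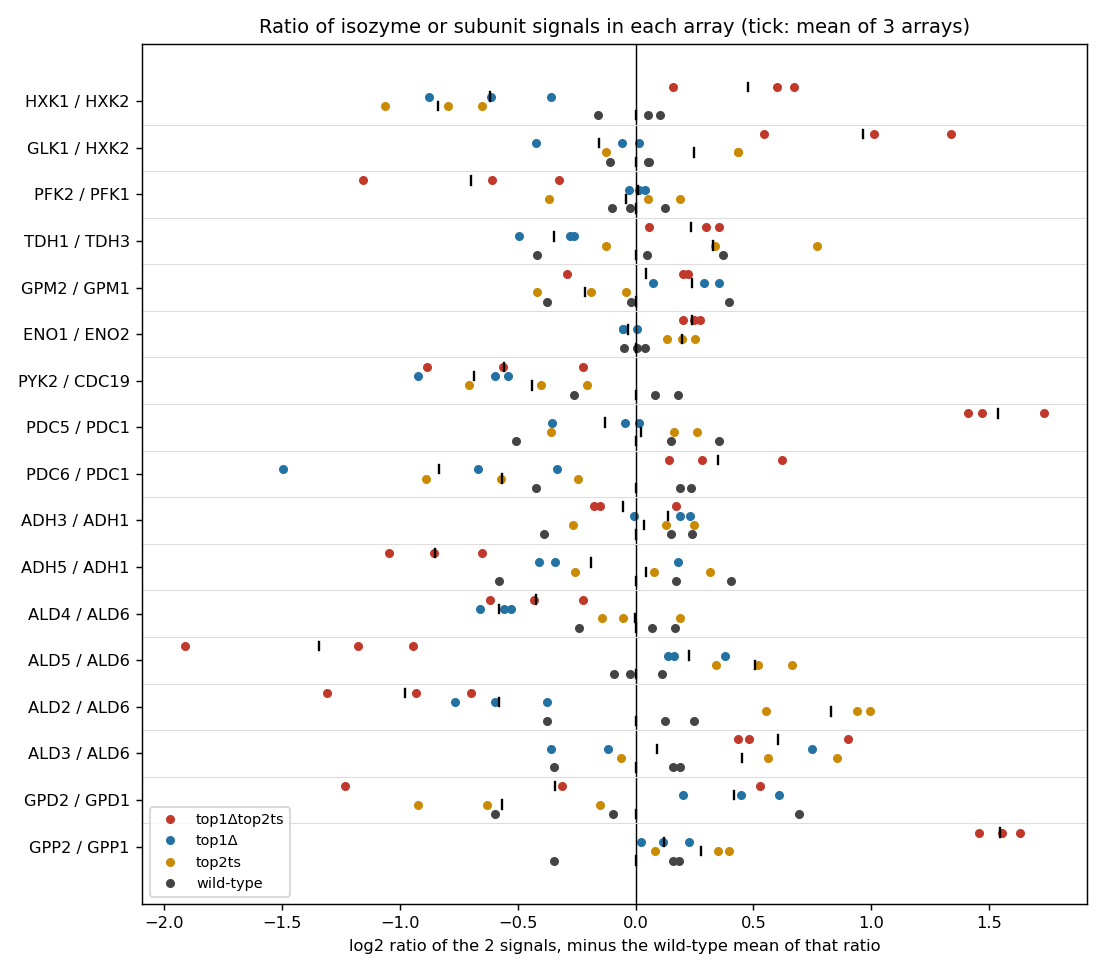
Log2 ratio of the signals of 2 isozymes or subunits, minus the wild-type mean of that ratio (x axis), for 17 pairs (rows). Each point is an array of *top1Δtop2ts*, *top1Δ*, *top2ts* or wild-type and each tick the mean of 3 arrays. In *top1Δtop2ts* the points of *PDC5* over *PDC1* and *GPP2* over *GPP1* lie farthest to the right and those of *ALD5* over *ALD6* farthest to the left.

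Grouped by role, the 10 major isozymes had a median log2 change of -0.43 in *top1Δtop2ts* with a range from -0.77 to -0.02, and the 4 genes that act alone at their step had a median of -0.47 with a range from -0.65 to -0.37. The 16 minor isozymes had a median of -0.31 and spread more widely, from -1.36 to 1.06. In *top1Δ* the medians were -0.13, -0.08 and -0.37, and in *top2ts* -0.17, -0.10 and -0.20. These classes hold 30 genes, and no test was made of them. They leave out *ACS2* (-1.57 in *top1Δtop2ts*) and the phosphofructokinase subunit genes *PFK1* (-0.70) and *PFK2* (-1.40). The changes of *ACS2* and *PFK2* lie below the range of the major isozymes. Whether the upper end of the signal scale narrowed that range was not tested. As a share of the summed signal of all genes, the 33 genes took 2.33%, 2.15% and 2.41% in the *top1Δtop2ts* arrays, against 1.90%, 2.43% and 1.94% in wild-type, with overlap between the strains.

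A second list held 59 genes that regulate, branch from or run beside these steps, of which 57 were measured. In *top1Δtop2ts* 9 of the 57 fell and 0 rose by the limma test, where 1.25% of all genes rose. With the replicate block 34 fell and 3 rose, where 62.7% of all genes fell and 4.99% rose. The share of the 57 called lower without the block, 15.8%, was close to the 15.1% of all genes, and their median log2 change was -0.50. Of the regulators, only *RAP1*, which encodes a transcription factor of glycolytic and ribosomal protein genes, fell, with a log2 change of -1.24 (limma adjusted p = 0.0164). It had 579, 368 and 427 in *top1Δtop2ts*, against 1698, 588 and 1212 in wild-type, and the highest double-mutant array was just below the lowest wild-type array. The changes of the other regulators ran from -0.94 for *MSN4* to 0.36 for *GCR1*, none past the test without the block. The pentose phosphate genes *ZWF1*, for glucose-6-phosphate dehydrogenase (-1.16), and *RKI1*, for ribose-5-phosphate ketol-isomerase (-1.26), fell. So did *MAE1*, for the mitochondrial malic enzyme (-1.47), *PYC2*, for a pyruvate carboxylase (-1.12), *LPD1*, for the dihydrolipoamide dehydrogenase of the pyruvate dehydrogenase complex (-1.11), *FBP26*, for fructose-2,6-bisphosphatase (-1.28), *ADH2*, for the glucose-repressed alcohol dehydrogenase (-1.15), and *STL1*, for a glycerol transporter (-1.05), with limma adjusted p between 0.00364 and 0.0467.

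In *top1Δ* 2 of the 57 fell, against 0.936% of all genes, namely *ADH2* with a log2 change of -1.57 (limma adjusted p = 0.0113) and *DAK2*, for a dihydroxyacetone kinase, with -1.41 (0.0365), and 0 rose. With the block it was 15 lower and 0 higher in *top1Δ*, against 12.4% and 0.569% of all genes, and 12 lower and 0 higher in *top2ts*, against 9.08% and 1.12%. The limma fit without the block called none in *top2ts*, where 0.532% of all genes were lower and 0.33% higher. With the block 9 of the 57 were below the sum of the single mutants and 12 above it, where 14.0% and 9.21% of all genes were. Without it 0 were below and 3 above, against 0.679% and 1.65% of all genes. The 3 were *DAK2* (departure 2.66), *FBP1*, for fructose-1,6-bisphosphatase of gluconeogenesis (2.33), and *TKL2*, for a minor transketolase (1.97), with limma adjusted p of 0.000221, 0.00215 and 0.0197. *FBP1* had 192, 77.1 and 210.5 in *top1Δtop2ts*, 70.7, 28.8 and 82.5 in *top1Δ* and 78.1, 29.2 and 66.9 in *top2ts*, against 139.7, 64.7 and 116 in wild-type. Its arrays overlapped between all strains. *DAK2* had 252, 87.1 and 107 in *top1Δtop2ts*, 28.7, 29.0 and 44.0 in *top1Δ* and 97.2, 34.5 and 52.1 in *top2ts*, against 125, 48.9 and 112 in wild-type. The signals of *DAK2* and *FBP1* are low, as the 95th percentile of the Tag control probe sets was 18.4.

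Neighbours on the chromosome, taken from the gene order of assembly R64, had changes that ranged on both sides of those of the enzyme genes. Next to *ACS2* lies *RNH203*, for a subunit of ribonuclease H2, whose log2 change in *top1Δtop2ts* was -2.17 (limma adjusted p = 2.82e-06), while *YLR152C* on its other side had -0.75. *PDC1* lies between *TRX1*, for a thioredoxin, with -1.91, and *STU2*, for a microtubule protein, with -2.198, both past the test, although *PDC1* itself had -0.55. *PYK2* lies next to *PUT4*, for a proline permease, which rose with a change of 2.34 (limma adjusted p = 3e-07). *GPP2* lies between *CEM1* and *THO1*, with -0.28 and -0.39. These neighbours were named after their values were seen.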

How the data were processed

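Total RNA of 12 cultures, 3 for each of 4 strains, was hybridised to Affymetrix Yeast Genome 2.0 arrays. The deposited values are MAS5 signal intensities. The study describes processing with the Affymetrix GeneChip Operating software and an external normalization to poly-A RNAs added to equal numbers of cells before extraction. In the deposited values these RNAs were not level. Their mean log2 signal was 8.46 to 8.72 in the arrays numbered 2, against 9.45 to 9.49 and 9.32 to 9.59 in those numbered 1 and 3. Whether the deposited values carry that normalization was not tested. No software version or genome build is given in the sources used here. The filter on present calls in the methods of the study was not applied. As arrays hold no read depth, their number limits the precision.

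From the table of 10928 probe sets, the 5498 paired with 1 gene were kept and averaged on the log2 scale to 5449 genes. Signals under 0.1 were raised to 0.1, which touched 4 values. A linear model of strain was fitted to the 12 arrays with limma 3.58.1 in R 4.3.3 (lmFit, eBayes), with two-sided p-values adjusted by the Benjamini-Hochberg method over all genes and a threshold of 0.05. Isozyme ratios were tested with exact permutation tests. Tables and figures were made in Python 3.11.15 with numpy 2.4.6, pandas 2.3.3 and matplotlib 3.10.9. The fit was tested on simulated data.

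As the experiments were run as independent triplicates, arrays with the same number were treated as 1 experiment in the blocked fit, although no label states this. Deviations from the strain means correlated above 0.1 in 10 of 18 same-numbered pairs. None of these joined *top1Δtop2ts* with wild-type (0.0231, -0.0112 and -0.0276) or with *top1Δ* (0.0317, 0.0879 and 0.0248). For the comparison of *top1Δtop2ts* with wild-type, these correlations thus do not show a shared deviation of same-numbered arrays. Alternatives were other array scalings, low-signal settings, a trend in the prior variance, the brightest probe set, the replicate number as a block, the 6 arrays of a comparison alone and each array left out. All members are named, with values in every array for those past the test or in isozyme pairs whose ratio moved by over 1. The members, lists and tests were chosen with earlier results of these data known. Gene names and neighbours came from RefSeq assembly R64. A search of promoters was not run.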

Additional observations from a re-analysis of the deposited data

Results flagged for a closer look

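Of the 33 genes, 11 departed from the sum of the single mutants in the limma fit blocked by replicate number, a test of additivity, with 4 lower and 7 higher, where 14.0% of all genes were lower and 9.21% higher. The departures on the log2 scale were -1.28 for *ACS2*, -0.98 for *PFK2*, -0.85 for *ALD5* and -0.78 for *ADH5*. They were 1.58 for *HXK1*, 1.57 for *PDC6*, 1.46 for *PDC5*, 1.38 for *ALD4*, 1.28 for *ALD3*, 1.22 for *ALD6* and 0.82 for *GPP2*. None passed in the limma fit of the deposited values without the block.

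In 3 isozyme pairs every array of one mutant lay outside the wild-type range on one side and every array of another on the opposite side. The share of all pairs of genes that did so is not given here. The log2 ratio of *HXK1* over *HXK2* changed by 0.48 in *top1Δtop2ts*, -0.62 in *top1Δ* and -0.84 in *top2ts*. That of *ALD5* over *ALD6* changed by -1.34 in *top1Δtop2ts*, 0.23 in *top1Δ* and 0.51 in *top2ts*. That of *ALD2* over *ALD6* changed by -0.98 in *top1Δtop2ts* and 0.83 in *top2ts*. The difference between the mutants was not tested in these pairs.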

How the results depend on the processing

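In *top1Δtop2ts* the count of enzyme genes called lower, 4 on the deposited scale (15.1% of all genes), was 17 with spike-in scaling (61.6%) and 16 with the replicate block (62.7%). The count called higher, 1 on the deposited scale (1.25%), was 5 with equal medians (21.7%), 3 with spike-in scaling (3.29%) and 7 with quantile normalization (23.9%). It was 3 with the replicate block (4.99%). With log2(signal + 16) it was 2, with an intensity trend 2 and with only the 6 arrays compared 0, settings whose shares of all genes are not given here. The median change was 0.085 with equal medians and 0.14 with quantile normalization. The sign turned for *ALD6* with equal medians (0.51) and quantile normalization (0.63), for *FBA1* with quantile normalization (0.24) and for *ENO1* with quantile normalization (0.46).

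In *top1Δ* the count called lower, 0 on the deposited scale, was 4 with equal medians (6.35% of all genes), 5 with spike-in scaling (9.16%), 5 with quantile normalization (4.92%) and 6 with the replicate block (12.4%). In *top2ts* it was 2 (2.77%), 4 (3.78%), 3 (3.43%) and 5 (9.08%) in the same order, and 1 gene was called higher with equal medians (3.34%) and 1 with quantile normalization (3.29%). For the departure from the sum, 4 (15.9%), 2 (7.74%), 2 (14.6%) and 4 (14.0%) were called lower and 7 (14.4%), 6 (6.79%), 7 (14.4%) and 7 (9.21%) higher. Isozyme pairs without overlap numbered 8 in *top1Δ* and 7 in *top2ts* with quantile normalization. The share over all pairs of genes is given only for the deposited scale, at 35.8% and 29.6%. The cause of these shifts was not tested.

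A pair of alternatives was chosen after seeing the data. Spike-in scaling with the replicate block gave 22 lower and 3 higher in *top1Δtop2ts*, 6 lower in *top1Δ*, 5 lower in *top2ts*, and 4 lower and 7 higher for the departure. Without the 4 arrays numbered 2 it was 9 lower and 3 higher in *top1Δtop2ts*, 4 lower in *top1Δ*, and 2 lower and 7 higher for the departure. Shares of all genes called under this pair of alternatives are not given here, so the counts are not results about the enzyme genes. In *top1Δtop2ts* spike-in scaling alone called 61.6% of all genes lower and the block alone 62.7%.

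Leaving out each array in turn gave 1 to 6 called lower and 0 to 2 higher in *top1Δtop2ts* (median -0.58 to -0.15), 0 to 2 lower and 0 higher in *top1Δ* (median -0.27 to -0.04), 0 in *top2ts* (median -0.38 to 0.13), and 0 lower and 0 to 3 higher for the departure (median -0.45 to 0.20). The shares of all genes called in these fits are not given here. Of the values of single genes under all alternatives, 2537 kept their direction and side of the threshold, 201 newly passed, 16 no longer passed, 245 moved beyond the replicate spread and 4 reversed. *ACS2* passed in 21 of 21 other settings, *PFK2* in 20, *ALD5* in 19, *ADH5* in 18 and *GPP2* in 11. The exact sign-flip test within 3 pairs cannot give a p below 0.25.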
